A study of Drosophila melanogaster with 24 samples.

Results

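The c-Jun N-terminal kinase (JNK) pathway of Drosophila melanogaster was followed through 9 of its genes and through raw, a gene known as a brake on it. The 10 genes were egr, grnd, msn, slpr, hep, bsk, Jra, kay, puc and raw, and every probe set carrying one of these symbols was taken, 16 of the 18769 probe sets tested. In all, 11981 genes had a named probe set. The 9 pathway genes were taken for their roles, with earlier results of these arrays known. The gene raw was chosen by its signal in these arrays, higher in selected larvae, so its larval values, and every difference that contains them, are given as a description with no test.

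JNK signalling is a cascade of kinases that cells switch on under stress, wounding and cell competition. At its top the tumour necrosis factor Eiger binds a receptor at the cell surface, kinases then activate one another in turn, and the last of them, the JNK Basket, activates the transcription factor AP-1, a pair of Jun and Fos proteins. The pathway is known in flies for closing the back of the embryo and the thorax of the pupa, for wound repair, for the removal of damaged cells and for tolerance of oxidative stress. It carries its own brake, since AP-1 switches on the phosphatase Puckered, which turns Basket off.

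The flies descended from 1 pool of intercrossed wild-type isogenic lines that was kept over generations either in room air (control, 3 populations) or in rising O2 until it lived in an extremely O2-rich chamber (S_O2_A, 3 populations). Adult S_O2_A flies were collected from that chamber and adult controls of the same generation from room air, each array holding a pool of 25 males and 25 females. The larvae were whole animals of the third instar, and the sources used here do not give their number, sex and O2 level at collection. Each population gave 2 arrays per stage, 6 per group and 24 in all. No gene was deleted and no transgene was driven in these animals. Selection and the O2 level at collection cannot be told apart in adults. Nothing in the sources says whether the 2 arrays of a population came from separate pools, so the p-values measure the spread between these arrays, part of which may be technical. RNA came from whole animals, so fewer cells of a type and less RNA per cell cannot be told apart. Values below are signals, the deposited intensities scaled to a common level on each array. Signals of different probe sets are not set against each other.

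The stage labels held in the marker genes: all 9 measured larval and fat body genes (12 listed) were lower in control adults than in control larvae by limma, and all 7 measured ovary and yolk genes (8 listed) were higher. Over all probe sets 22.1% were lower and 28.9% higher. Of 4 flight muscle markers 3 were called lower in S_O2_A adults, beside 0.277% of all probe sets. Their summed signal (4 of 4 genes measured) ran from 21879 to 44869 in control adults and from 5661 to 10324 in S_O2_A adults, with all 4 above the 20th percentile of signals in both groups. In larvae the summed signal of larval and fat body genes was 858321 to 1109323 in controls and 601294 to 962185 in S_O2_A populations, and 9 of 9 measured genes lay above that percentile in both. Blood cell markers, 8 of 8 measured and all above it, summed to 45717 to 79702 in control larvae and 60453 to 76211 in S_O2_A larvae. Those of imaginal discs and epidermis, 7 of 8 measured and all 7 above it, summed to 7835 to 12080 and 9022 to 12892. Behind these sums the genes differed. Of the 9 larval and fat body genes 0 were called in larvae, and the list median was -0.35. By limma 3 had an unadjusted p under 0.05, beside 16.2% of all probe sets. They were the salivary glue genes Sgs1, Sgs3 and Sgs5, at -1.61, -0.45 and -0.34 in log2 units. The glue genes Sgs4, Sgs7 and Sgs8 had -0.41, -0.15 and -0.40. Lsp2, Fbp1 and Fbp2, of the fat body, had -0.035, -0.35 and -0.11. In larvae 1 of the 7 disc genes was called higher, as were 0.868% of all probe sets: it was nub, named after its value was seen, at 0.83 in log2 units (adjusted p = 0.0103 by limma), while the median of the list was -0.27. Of the 8 blood cell genes 0 were called and 4 (NimC1, eater, He and srp), all with negative log2 fold changes, had an unadjusted p under 0.05, with a list median of -0.31, beside -0.11 and 16.2% over all probe sets. The remaining genes were mostly on the other side, with 0.058 for Hml, 0.274 for PPO1 and 0.395 for PPO2, and -0.204 for Pxn at its brightest probe set. The part of these tissues in the results was not tested.

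The arrays of S_O2_A larvae and control larvae did not overlap at 2 of the 15 member probe sets other than raw, those of grnd and puc, where 4.12% of all probe sets had groups that did not overlap. The receptor gene grnd was 1.77-fold lower, the phosphatase gene puc was 1.57-fold higher in signal just outside the threshold, and raw, as a description, stood at 4.42 times its control level, the value for which it had been chosen. The kinases between receptor and AP-1 had no called difference in either stage. In adults no probe set of the 10 genes passed the threshold. At 1 probe set of egr, at Jra and at puc the S_O2_A difference in adults was called lower than that in larvae. Over all probe sets 0.954% were called lower and 1.01% higher in that comparison. With each population as 1 mean 0 of these calls remained, and each was lost in most fits without 1 population.

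**Figure D1:**
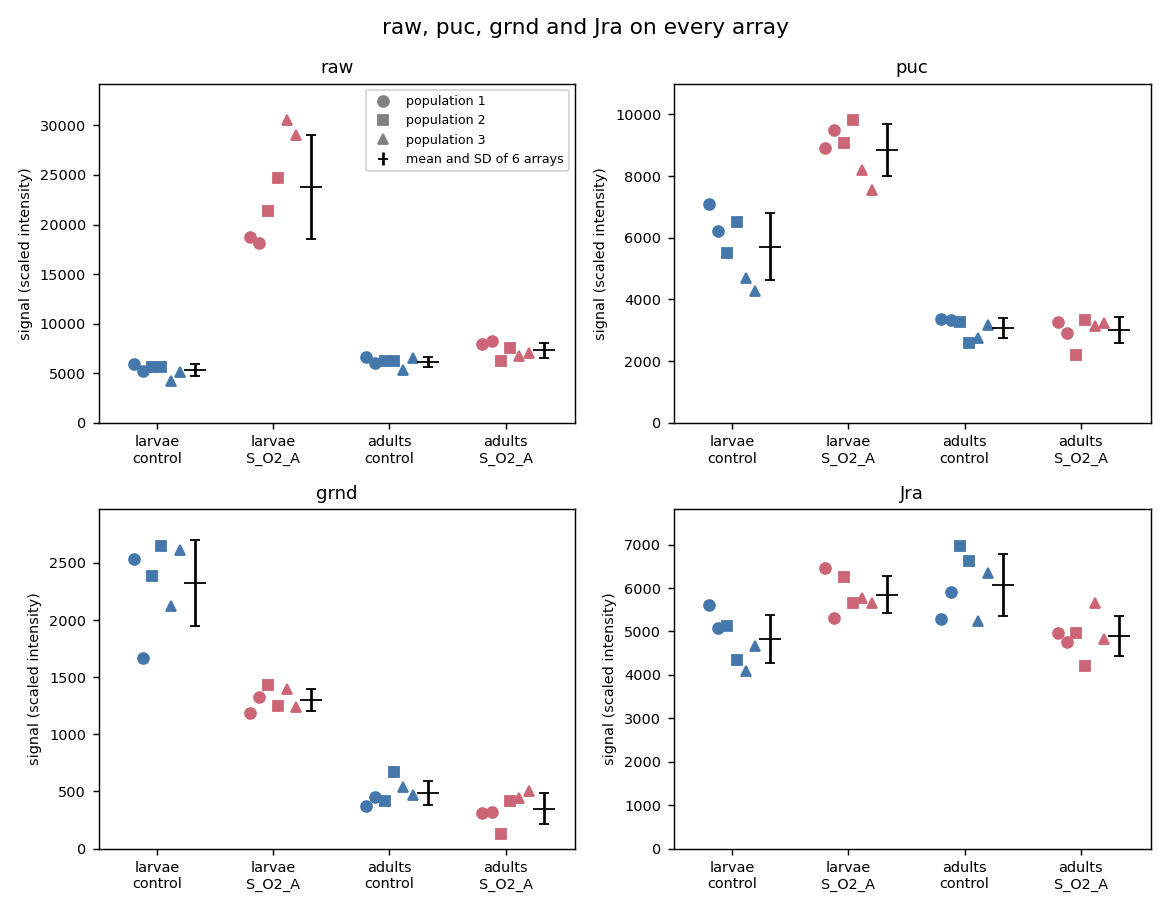
Signal (deposited intensity, linear axis from 0) of raw, puc, grnd and Jra on each of the 24 arrays, with marker shapes for populations 1 to 3 and black bars for the mean and SD of 6 arrays. The S_O2_A larvae stand above all control larvae for raw (18149.1 to 30539.5 against 4237.6 to 5920.0) and puc, and below them for grnd, while Jra lies higher in S_O2_A larvae and lower in S_O2_A adults with overlapping groups.

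The ligand gene egr encodes Eiger, the tumour necrosis factor of the fly, and was read by 2 probe sets that did not go the same way in adults. At the brighter one (1639671_at) the signal in adults ran from 1016.1 over a median of 1420.7 to 1788.8 in controls and from 1071.8 over 1326.7 to 1601.8 in S_O2_A flies. These ranges overlapped almost entirely, with a log2 fold change of -0.05 (standard error 0.17). At the dimmer one (1629442_at) control adults ran from 291.4 over 545.5 to 707.6 and S_O2_A adults from 55.8 over 132.9 to 384.5. Here 5 of 6 S_O2_A arrays lay below every control array, and the exception was an array of population 3. The log2 difference was -1.84 (standard error 0.43, 95% confidence interval -2.79 to -0.89), the 29th largest fall among all 18769 probe sets, and did not pass the threshold (adjusted p = 0.126 from limma). With all 24 arrays in 1 fit it did (adjusted p = 0.00366, range over 18 alternatives 0.00366 to 1.0), and its size ran from -2.46 to -1.23 over them. The S_O2_A adult signals at 1629442_at were dim, with 5 of 6 above the 20th percentile of all signals (90.4). A floor at that percentile gave a log2 difference of -1.72. Since egr and bsk were also singled out from these arrays for RT-PCR, their choice is not independent of them.

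In larvae the same 2 probe sets of egr lay close to their control values. The dimmer one ran from 1406.3 over 1695.2 to 2096.1 in controls and from 1524.6 over 1681.6 to 2038.4 in S_O2_A larvae, a log2 fold change of 0.01 (standard error 0.13). The brighter one had -0.11 (standard error 0.15). The S_O2_A difference of 1629442_at in adults less that in larvae was -1.85 (standard error 0.43, adjusted p = 0.0291 from limma). This call was lost in 4 of 6 fits that left out 1 population (adjusted p up to 0.154, without control population 3).

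Across the arrays the 2 probe sets of egr varied together in larvae and not in adults, with a Pearson r of 0.65 over the 12 larval arrays and 0.08 over the 12 adult arrays, 2 arrays of each population being among them. Which transcripts of egr each probe set reads was not analysed here.

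The gene grnd encodes Grindelwald, a receptor through which Eiger acts, and was the member that fell in S_O2_A larvae. Its signal ran from 1666.4 over 2458.1 to 2650.3 in control larvae and from 1183.3 over 1285.5 to 1428.2 in S_O2_A larvae. All 6 S_O2_A arrays lay below all 6 control arrays, and the S_O2_A arrays stood close together (SD 96.9 against 376.7). grnd had a log2 fold change of -0.82 (95% confidence interval -1.13 to -0.51, standard error 0.14) and was called lower (adjusted p = 0.017 from limma). Over all probe sets 0.778% were called lower and 0.868% higher in larvae, and of the 15 member probe sets other than raw 1 was called lower and 0 higher. The grnd call held in 8 of 18 alternatives. It was lost with arrays centred on their medians (adjusted p = 0.0694, range over 18 alternatives 0.00523 to 0.511), and in limma with population means (0.229) and in the fit of all 24 arrays (0.0562). It was also lost with the first or second arrays alone, with a t-test after Bonferroni, and in 4 of 6 fits without 1 population. Among those 6 fits the highest adjusted p was 0.107, without control population 3. The log2 fold change of grnd stayed between -0.90 and -0.64.

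In adults the signal of grnd ran from 372.0 over 463.0 to 669.2 in controls and from 123.6 over 364.4 to 503.5 in S_O2_A flies. The groups overlapped, with 3 of 6 S_O2_A arrays below all controls, 1 of them far below. In log2 units the difference was -0.57 (standard error 0.33, adjusted p = 0.583), and -0.32 without S_O2_A population 2, which held the lowest array. The adult difference less the larval one was 0.25 (95% confidence interval -0.44 to 0.93), which leaves room for an equal, a smaller or a larger fall in adults.

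Between receptor and JNK stand misshapen (msn), a Ste20-type kinase at the head of the cascade, slipper (slpr), a mixed-lineage kinase below it, and hemipterous (hep), the kinase that activates Basket directly. None of their 5 probe sets was called in adults or larvae. msn in larvae ran from 2781.7 over 3499.6 to 5405.4 in controls and from 3660.5 over 5180.8 to 6511.7 in S_O2_A populations, with 2 of 6 arrays above all controls and a log2 fold change that was 0.47 (adjusted p = 0.281, standard error 0.21). In adults msn had -0.02 (standard error 0.12). slpr had log2 fold changes of 0.02 (standard error 0.12) in larvae and 0.08 (standard error 0.20) in adults, and its 95% confidence intervals were -0.24 to 0.28 and -0.35 to 0.51.

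For hep the 3 probe sets differed in sign in adults. The brightest, 1626465_a_at, ran from 2239.4 over 2601.6 to 2952.0 in control adults and from 2369.0 over 3422.8 to 4239.4 in S_O2_A adults. Both arrays of S_O2_A population 1 and 2 others lay above all controls, and the log2 fold change was 0.37 (standard error 0.16, adjusted p = 0.419). The other 2 had 0.27 (1634949_at) and -0.35 (1623804_a_at), adjusted p = 0.643 and 0.621. In larvae the 3 had 0.26, 0.12 and 0.00, with adjusted p from 0.362 to 0.999.

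Basket (bsk), the JNK itself, was read by 3 probe sets, of which 1634580_at was above the 20th percentile of all signals (90.4) on only 8 of 24 arrays and gave 95% confidence intervals more than 3 log2 units wide in both stages. bsk was also read by RT-PCR, and the paper states that the RT-PCR of its candidate genes, bsk and egr among them, matched its arrays. Its text gives neither the direction for these 2 genes nor the probe set meant. The primer pair, from the supplementary primer list and for a gene on arm 2L, is shown as the designed sequence of that second readout.
bsk primer 1: cgcaaaggaacttggaagag
bsk primer 2: atttggatgacctggcagag
The position of these primers and of the probe sets in the transcript was not analysed here.

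At its brightest probe set (1625533_at) bsk ran from 4588.9 over 5082.5 to 5687.2 in control adults and from 4539.1 over 5395.1 to 6417.4 in S_O2_A adults, and these groups overlapped (log2 fold change 0.06, standard error 0.11). At 1626404_a_at control adults ran from 1983.5 over 2245.0 to 2556.2 and S_O2_A adults from 1355.8 over 1582.3 to 2181.0. Here 5 of 6 S_O2_A arrays lay below all controls, and so did the means of all 3 S_O2_A populations. The log2 fold change of -0.43 (standard error 0.14) had an adjusted p of 0.265 from limma, and 0.0413 with all 24 arrays in 1 fit (range over 18 alternatives 0.0413 to 1.0). In larvae both probe sets had 0.07 and 0.06 (standard errors 0.09 and 0.09), the smallest standard errors among the members in larvae. The adult difference less the larval one was -0.50 at 1626404_a_at (standard error 0.14, adjusted p = 0.0697) and -0.01 at 1625533_at (standard error 0.12).

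Over 12 arrays the Pearson r of the 2 bright bsk probe sets was 0.53 in larvae and -0.08 in adults. Like egr, bsk thus had a bright probe set that lay close to its control values in S_O2_A adults and a dimmer one that lay lower, and neither difference passed the threshold.

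**Figure D2:**
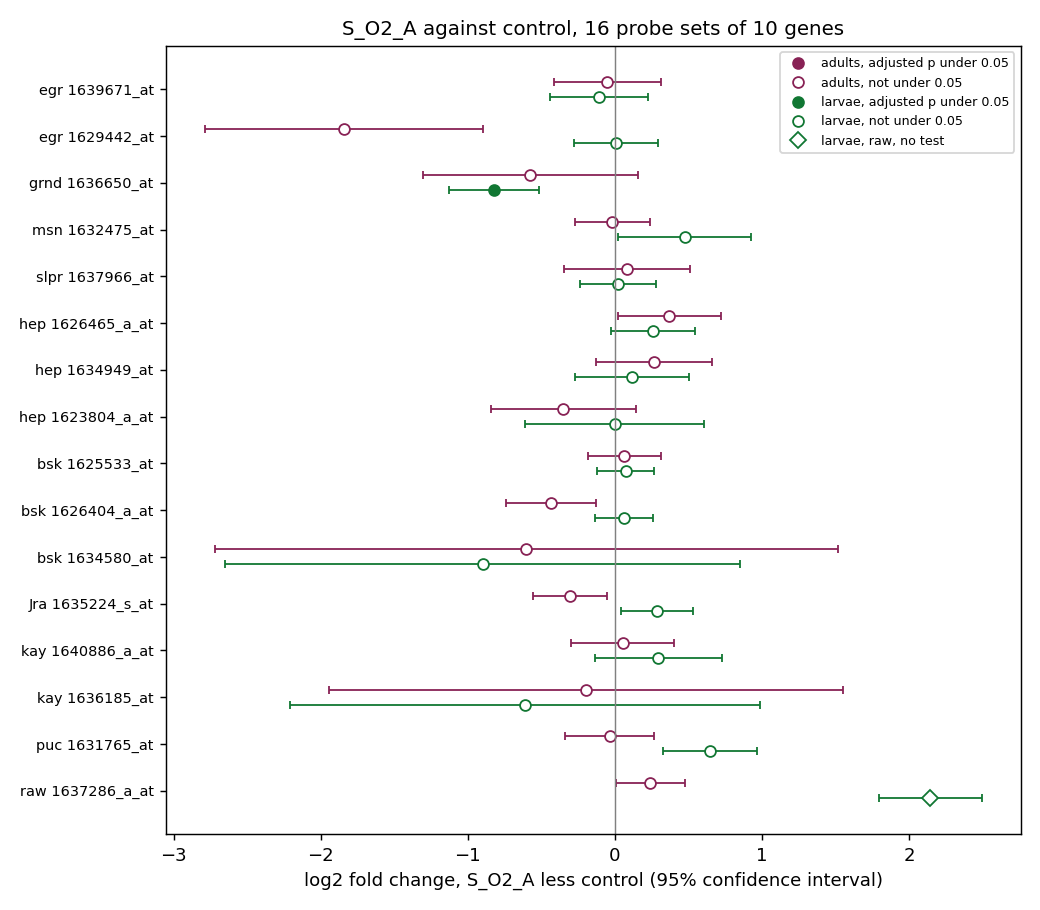
Log2 fold change of S_O2_A less control (x axis, with 95% confidence intervals) for all 16 probe sets, adults in purple and larvae in green. Filled circles mark an adjusted p under 0.05, open circles values that missed it, and the diamond raw in larvae, whose drawn interval is no test. The only filled point is grnd in larvae at -0.82, and egr 1629442_at in adults lies at -1.84.

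**Figure D3:**
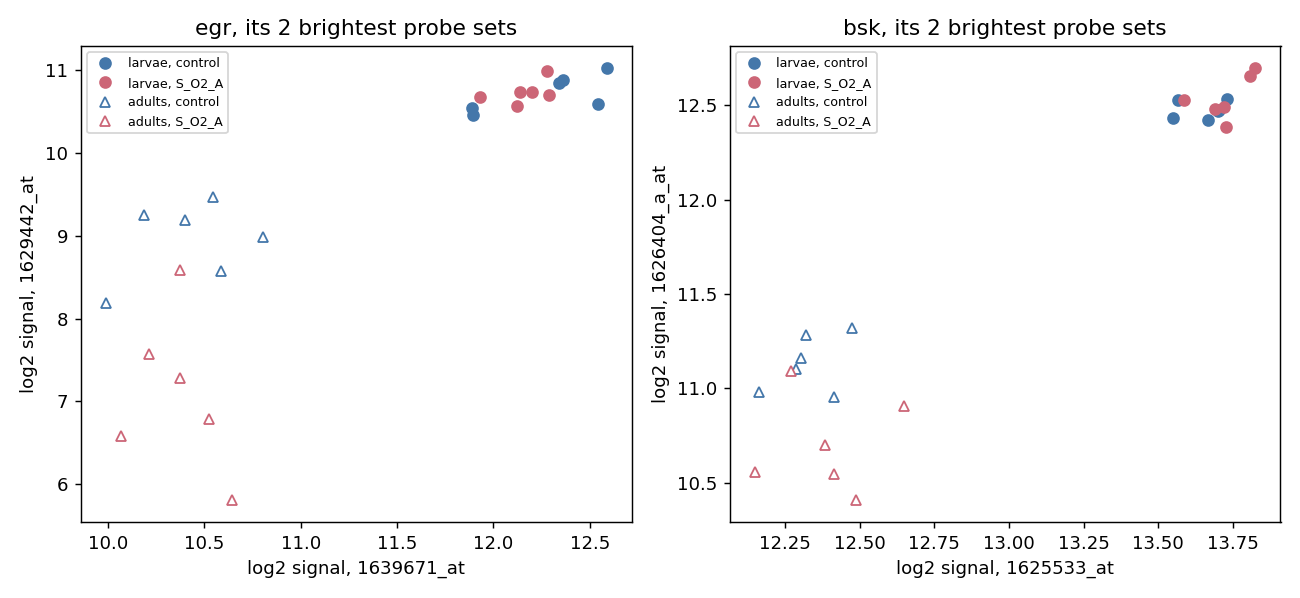
Log2 signal of the brighter against the dimmer of 2 probe sets of egr (left) and of bsk (right), 1 point per array, larvae as filled circles and adults as open triangles. The adult triangles of S_O2_A lie below those of control on the y axis (5 of 6 arrays below all controls at both genes) and beside them on the x axis.

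AP-1 is formed by Jun, encoded by Jra, and Fos, encoded by kay. The signal of Jra lay higher in S_O2_A larvae and lower in S_O2_A adults than in their controls. In larvae its signal ran from 4093.1 over 4872.9 to 5611.3 in controls and from 5315.8 over 5709.5 to 6455.6 in S_O2_A populations, with 5 of 6 arrays above all controls. In adults it ran from 5242.2 over 6128.8 to 6973.8 in controls and from 4204.2 over 4895.0 to 5660.9 in S_O2_A flies, with 5 of 6 arrays below all controls. Neither difference was called alone, at 0.28 in larvae (standard error 0.11, adjusted p = 0.233) and -0.31 in adults (standard error 0.12, adjusted p = 0.344). The adult difference less the larval one was -0.59 (standard error 0.14, 95% confidence interval -0.87 to -0.30, adjusted p = 0.0295 from limma). It was not called with arrays centred on their medians (adjusted p = 0.0556, range over 15 alternatives 0.0111 to 0.722) or in 4 of 6 fits without 1 population (up to 0.128, without S_O2_A population 1).

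Jra and egr lie on the same chromosome arm with 2 protein-coding genes between them. The S_O2_A difference was lower in adults than in larvae at Jra and at the dimmer egr probe set, and not at the brighter one (0.06, standard error 0.20, adjusted p = 0.913). The genes between them, CG2269 and sut4, had log2 fold changes of 0.25 and 0.85 in adults (adjusted p = 0.807 and 0.464) and -0.10 and -0.50 in larvae (adjusted p = 0.854 and 0.785). On the other side of Jra, RpLP0-like was called lower in larvae (-0.51, adjusted p = 0.0388 from limma) and had -0.04 in adults (adjusted p = 0.943). These neighbours were looked at after the values of Jra and egr were seen.

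At kay the bright probe set (1640886_a_at) split the S_O2_A larvae. It ran from 3657.7 over 4289.7 to 4731.9 in controls and from 3633.4 over 5358.8 to 7235.9 in S_O2_A populations, where both arrays of population 2 and 1 of population 1 lay above all controls and both of population 3 did not. Its log2 fold change stood at 0.30 (adjusted p = 0.502, standard error 0.20). In adults it was 0.05 (standard error 0.16). The dim probe set 1636185_at, above the 20th percentile on 14 of 24 arrays, had -0.61 in larvae and -0.20 in adults with standard errors of 0.73 and 0.80, and could not show a difference of the size seen at other members.

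The phosphatase gene puc, which AP-1 switches on and whose product turns Basket off, was higher in signal on every array of S_O2_A larvae. Control larvae ran from 4274.6 over 5852.5 to 7087.2 and S_O2_A larvae from 7535.2 over 8977.4 to 9816.1. All 6 S_O2_A arrays lay above all 6 control arrays. The log2 fold change was 0.65 (standard error 0.15, 95% confidence interval 0.33 to 0.96), with an adjusted p of 0.0504 from limma, just outside the threshold. Of 18 alternatives 7 brought it inside, among them arrays centred on their medians (0.83, adjusted p = 0.024), and over all of them the adjusted p ran from 0.00599 to 1.0. Its size stayed between 0.48 and 0.83.

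In adults the signal of puc ran from 2587.7 over 3224.9 to 3362.8 in controls and from 2205.5 over 3181.7 to 3349.3 in S_O2_A flies. Only 1 S_O2_A array, of population 2, lay outside the control range. Its log2 fold change was -0.04 (95% confidence interval -0.34 to 0.27). The adult difference less the larval one was -0.68 (standard error 0.18, adjusted p = 0.0484 from limma). That call was lost in all 6 fits without 1 population (adjusted p 0.0564 to 0.202, the highest without S_O2_A population 1). It was also lost with no block (adjusted p = 0.0598) and under quantile normalization (adjusted p = 0.0678, range over 15 alternatives 0.0193 to 0.65).

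Of the 15 member probe sets other than raw, 3 had a called difference between the stages in the S_O2_A effect, egr 1629442_at, Jra and puc, all 3 lower in adults than in larvae. Over all probe sets 0.954% were called lower and 1.01% higher in that comparison, which shares its arrays with those of each stage.

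The gene raw was first known in embryos, where its loss lets JNK and AP-1 activity spread through the epidermis and the back fails to close. It was read by 1 probe set. In control larvae the 3 populations had 5920.0 and 5184.5, 5650.0 and 5622.9, and 4237.6 and 5147.5 on their 2 arrays. In S_O2_A larvae they had 18724.3 and 18149.1 (population 1), 21380.7 and 24702.7 (population 2), and 30539.5 and 29065.9 (population 3). The lowest S_O2_A array thus lay above 3 times the highest control array, and the S_O2_A populations differed more from one another than their arrays did, and both arrays of population 3 lay above the other 4. The log2 fold change of 2.15 was the 18th largest rise among the 18769 probe sets, and over 18 alternatives it ran from 1.88 to 2.33. These are the values on which raw was chosen, so their size and rank describe that choice and test nothing.

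The order of the S_O2_A larval populations was not the same for raw and for puc. Population 3, with the highest mean signal of raw (29802.7), had the lowest of puc (7870.4), and the other populations had 18436.7 and 23041.7 for raw and 9197.3 and 9439.2 for puc. With 3 populations this is given as a description.

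Adult raw, which the choice of genes did not use, lay slightly higher in S_O2_A flies. Control adults ran from 5293.3 over 6196.5 to 6686.2 and S_O2_A adults from 6195.8 over 7312.2 to 8216.3. Of the S_O2_A arrays 5 of 6 lay above all controls, as did the means of all 3 S_O2_A populations. On the log2 scale the difference was 0.24 (standard error 0.11, 95% confidence interval 0.01 to 0.48) and was not called (adjusted p = 0.438 from limma). The adult difference less the larval one was -1.90, again a description.

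In adults 0 of 16 member probe sets were called, where 0.0799% of all probe sets were called higher and 0.277% lower. At an unadjusted p under 0.05, limma gave 5 of 16 members (egr 1629442_at, hep 1626465_a_at, bsk 1626404_a_at, Jra and raw), beside 11.1% of all probe sets. A t-test, which the methods name for data other than life span, gave 0 of 16 after Benjamini-Hochberg and 0 after Bonferroni adjustment. It took the arrays as independent and used no fold change cut. The paper's own call of array genes asked for a fold change and a stricter Bonferroni p. None of the 16 had groups that did not overlap in adults, beside 2.4% of all probe sets. In larvae 4 of the 15 other than raw had an unadjusted p under 0.05 (grnd, msn, Jra and puc), beside 16.2% of all probe sets. With each population as 1 mean, 3 against 3, 0 members and 0 of all 18769 probe sets were called in either stage by limma.

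The genes beside raw on its chromosome arm had no called larval difference, a comparison chosen after the values were seen. Of the 3 protein-coding genes on each side, 5 of 6 had a named probe set. Their larval log2 fold changes ran from -0.42 to 0.99, and 0 of 5 were called by limma (lowest adjusted p = 0.0975). Over all probe sets 0.868% were called higher and 0.778% lower in larvae, so a count of 0 cannot show that the rise was confined to raw.

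Genes whose pattern over the 12 larval arrays was most like that of raw were sought among 12080 other probe sets of 1 gene with a median signal above the 20th percentile. The 5 closest were Socs44A, a suppressor of cytokine signalling (Pearson r 0.975), CG10911 (0.972), Clic, a chloride intracellular channel protein (0.969), CG5550 (0.968) and Chs2, a chitin synthase (0.967). All 5, picked for their likeness to raw, had higher signals on every S_O2_A array than on any control array, for instance 5889 to 8612 against 2844 to 3903 for Socs44A. Over all probe sets 4.12% had larval groups that did not overlap, and the picking makes this count of 5 a description with no test. For puc in larvae the closest were Rcd2 (0.977), Fa2h, a fatty acid 2-hydroxylase (0.969), CG16965 (0.967), Hydr2 (0.96) and CG1246 (0.957). These values rest on 12 arrays of 6 populations and follow the group difference that raw and puc already had.

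Over the 12 adult arrays other genes were closest, among 12152 probe sets. For raw they were CG3847 (0.962), Klc, the light chain of kinesin (0.961), Imp, an mRNA-binding protein (0.954), Mov10 (0.951) and rngo (0.95), whose S_O2_A and control arrays overlapped at all but Mov10, with 3594 to 4630 against 2746 to 3562. For puc they were ste24c (0.921), CG18476 (0.915), CG34398 (0.901), CG31675 (0.874) and Nf1, a Ras regulator (0.859), with signals of 32 to 539, near the dim end. Like Mov10, 2.4% of all probe sets had adult groups that did not overlap.

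The wider pathway was read from 4 lists, with 39 of 57 listed genes measured and the brightest probe set of each gene counted. Of 16 measured genes that feed into JNK or belong to its kinase cascade (22 listed), 0 were called in larvae and 0 in adults, with 0 and 2 at an unadjusted p under 0.05 and median log2 fold changes of -0.11 and 0.12. Over all probe sets 16.2% in larvae and 11.1% in adults had such a p, and the medians were -0.11 and 0.06. At scrib, a scaffold of epithelial polarity whose loss is known to activate JNK, 1 dimmer probe set of 5 was called higher in larvae: 1635642_at ran from 2005.4 to 3045.4 in controls and from 2839.9 to 4306.4 in S_O2_A larvae, a log2 difference of 0.71 (adjusted p = 0.0388, standard error 0.15). The brightest probe set of scrib had -0.16 (adjusted p = 0.739). The listed input genes without a probe set carrying their symbol alone, and so not read here, were Tak1, Src42A, Rac1, Rac2, Mtl and Cdc42.

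Of 13 measured genes known as targets of JNK (20 listed), 1 was called higher in larvae and 0 in adults, with 3 and 4 at an unadjusted p under 0.05, where 0.868% of all probe sets were called higher in larvae and 16.2% and 11.1% had such a p. It was Atf3, a bZIP transcription factor. Its signal ran from 2668.2 over 3108.4 to 3788.1 in control larvae and from 4172.1 over 4913.0 to 5475.3 in S_O2_A larvae, and all 6 S_O2_A arrays lay above the controls (log2 fold change 0.66, standard error 0.13, adjusted p = 0.028). In adults Atf3 had 0.27 (standard error 0.23, adjusted p = 0.723). The list had medians of -0.09 in larvae and 0.00 in adults. It could not speak for Mmp1, rpr, hid, upd3, zip, Thor and Fas3, which had no probe set carrying their symbol alone.

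The 2 other lists had no called gene in either stage. Of 6 measured genes of the p38 kinases, a sister stress pathway (9 listed), 2 in larvae and 4 in adults had an unadjusted p under 0.05, with medians of 0.21 and 0.26, beside 16.2% and 11.1% of all probe sets. Of 4 measured further brakes of JNK or partners of raw (6 listed), 1 and 1 did, with medians of 0.00 and 0.10, beside the same shares. None of the genes of the 4 lists had a called difference between the stages in the S_O2_A effect at any probe set.

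Most of the pathway differed in level between larvae and adults, a comparison that selection did not enter in the control populations. Of the 15 member probe sets other than raw 7 were lower and 5 higher in control adults than in control larvae by limma, where 22.1% of all probe sets were lower and 28.9% higher. The ligand, the receptor, the JNK, Fos and the phosphatase were lower in adults. The kinases msn, slpr and hep and the Jun gene were higher.

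Among those lower in control adults, grnd had the largest difference, at -2.27 (standard error 0.23, adjusted p = 1.74e-08). The differences were -1.85 and -1.79 at the 2 probe sets of egr, -1.33 and -1.34 at the bright ones of bsk, -0.97 at the bright one of kay and -0.88 at puc, with adjusted p from 5.79e-12 to 2.24e-05. These 7 calls held in all 15 alternatives.

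Among those higher in control adults, hep had 0.94 and 1.05 at 2 of its 3 probe sets (adjusted p = 1.32e-06 and 0.000461), and 1634949_at had 0.00. The values were 0.60 for msn, 0.50 for slpr and 0.33 for Jra. With quantile normalization the calls of slpr (0.11, adjusted p = 0.571, range over 15 alternatives 0.0016 to 0.571) and Jra (0.13, adjusted p = 0.29, range 0.00251 to 0.371) were lost, and that of msn was lost without control population 1 (adjusted p = 0.0633). As a description, raw had 0.22 in control populations, with 4237.6 to 5920.0 in larvae and 5293.3 to 6686.2 in adults.

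**Figure D4:**
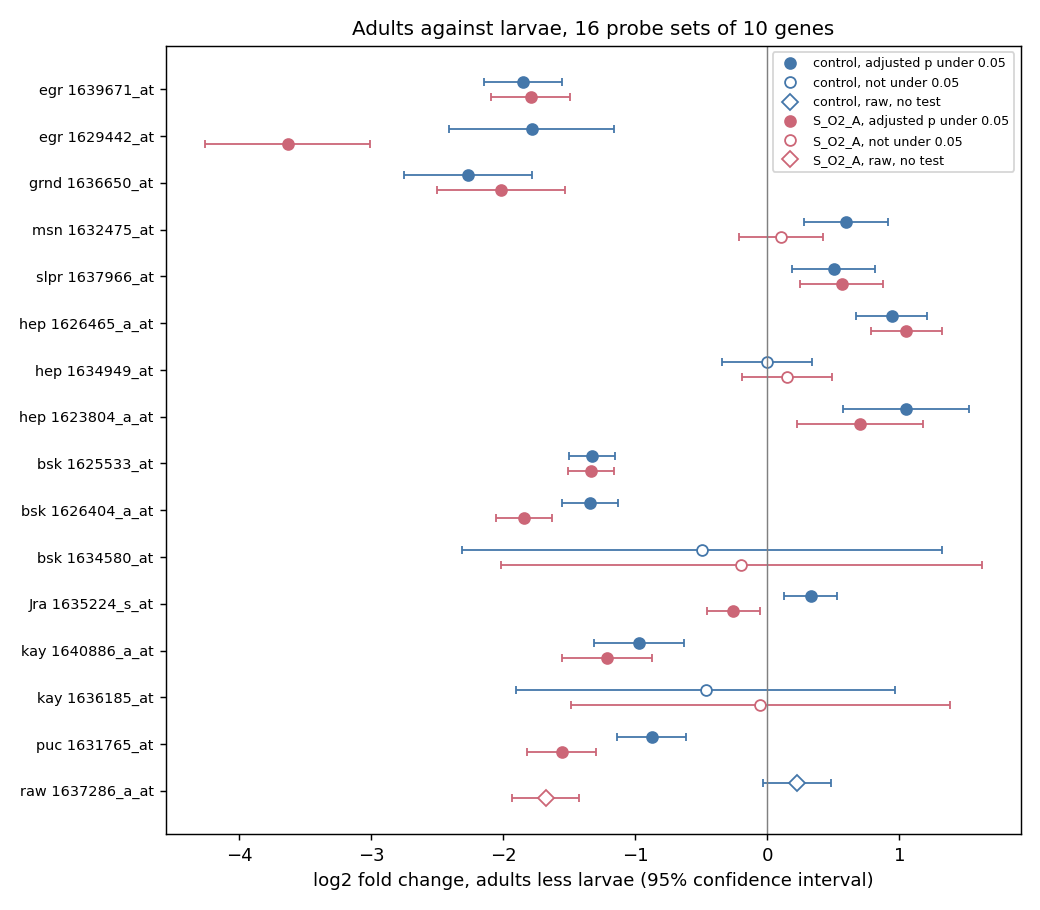
Log2 fold change of adults less larvae (x axis, with 95% confidence intervals) for all 16 probe sets, control populations in blue and S_O2_A populations in red, filled where the adjusted p was under 0.05. The 2 colours lie together for grnd, slpr and bsk 1625533_at and apart for egr 1629442_at (-1.79 and -3.63), Jra (0.33 and -0.26), puc (-0.88 and -1.56) and raw, whose diamonds and intervals are a description with no test.

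In S_O2_A populations 8 of 15 member probe sets other than raw were lower in adults and 3 higher, where 19.4% of all probe sets were lower and 34.1% higher. slpr (0.57) and 2 probe sets of hep (1.05 and 0.70) were higher here too, though slpr lost its call with quantile normalization (adjusted p = 0.631, range over 15 alternatives 0.000966 to 0.631) and hep 1623804_a_at without S_O2_A population 1 (adjusted p = 0.158, range 0.00204 to 0.167). Jra changed sides, from 0.33 in control populations to -0.26 (standard error 0.10, adjusted p = 0.0281), a call that was lost in 2 of 6 fits without 1 population (up to 0.208, without S_O2_A population 2). msn, called in control populations, was not called here, with 0.10 (95% confidence interval -0.21 to 0.42, adjusted p = 0.6), and the change of msn between the 2 kinds of population was not called (adjusted p = 0.241). egr 1629442_at stood 12.4-fold lower in S_O2_A adults than in S_O2_A larvae and 3.45-fold lower in control adults than in control larvae, and puc 2.95-fold and 1.84-fold. The value of raw in S_O2_A populations, again a description, was -1.68.

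Of the 13 measured JNK targets 8 were lower and 3 higher in control adults than in control larvae, with a median log2 fold change of -1.10, beside 0.09 over all probe sets. In S_O2_A populations 7 were lower and 3 higher, with a median of -0.96, beside 0.30. Of the 16 genes of the input list 5 were lower and 7 higher in control populations, where 22.1% of all probe sets were lower and 28.9% higher. The same 2 counts were found in S_O2_A populations, where the shares were 19.4% and 34.1%. The summed signal of ovary and yolk markers, 7 of 8 measured, was 2314 to 15658 in control larvae and 615985 to 891690 in control adults, and the part of such tissues in these stage differences was not tested.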

How the data were processed

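Total RNA of whole larvae and of whole adult flies was measured on 24 Affymetrix Drosophila Genome 2.0 arrays. The authors deposited 1 intensity value per probe set and array on a linear scale. Their methods list the model-based index of dChip and RMA as programs, without saying which made these values. The trimmed mean was 2500.1 on every array, so the deposited values already shared a level, and no further normalization was applied. Array medians ran from 401.6 to 685.2.

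The labels gave each array its group, population and array number. Probe sets were named through GEO's platform annotation, with symbols updated by gene number to RefSeq. Of 18952 probe sets, 183 controls were left out, and of the 18769 tested, 13647 carried a single gene symbol, 402 more than 1, and 4720 did not appear in that annotation. Signals were set to at least 1.0, taken as log2 and fitted by lmFit and eBayes of limma 3.58.1 (R 4.3.3; log2 of the deposited values) with the population as a random block. Each stage was fitted alone, and the difference between stages was fitted over all 24 arrays, where a block joined the larval and adult arrays of a population. That block did not make the test of this difference stricter, with 369 calls over all probe sets against 301 with no block. P-values were adjusted by Benjamini-Hochberg over all probe sets, and calls were made at an adjusted p under 0.05. Arrays of 1 population correlated at an estimated 0.133 (adults), 0.153 (larvae) and 0.0425 (both stages). The number of arrays and populations limits the precision.

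Members and gene lists were chosen with earlier results of these data known. All 16 probe sets of the 10 genes are named, and of the pathway lists the genes past the threshold in adults or in larvae. Tissue markers are given as sums over each list. Of the p38 list, Mnk was left out because its symbol leads to another kinase gene. Population numbers were not taken as pairs: deviations of same-numbered control and S_O2_A populations correlated at -0.08 to 0.12. Whether a number stands for a shared handling step was not tested. Alternatives changed the block, the normalization, the floor, the filter on dim probe sets, the arrays and populations used, and the test. The protein and promoter sequences that had been planned were not analysed here.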

Additional observations from a re-analysis of the deposited data

Results flagged for a closer look

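In 4 of 64 groups of 6 arrays, 1 array stood apart from the others of its group by Dixon's gap test on log2 signals, where chance gives about 3.2 such groups (1 in 20). In S_O2_A adults this was the first array of population 2 for both grnd (signal 123.6 against 307.3 to 503.5 on the others, gap over range 0.649) and puc (2205.5 against 2912.3 to 3349.3, 0.665). In control larvae of population 1 it was the first array for hep 1634949_at (891.6 against 1177.1 to 1362.7, 0.655) and the second for the dim kay 1636185_at (27.2 against 108.5 to 197.1, 0.699).

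The S_O2_A effect differed between adults and larvae, by the test of the difference over all 24 arrays in limma, at 3 probe sets. The adult less the larval log2 fold change was -1.85 at egr 1629442_at, -0.59 at Jra and -0.68 at puc, with adjusted p of 0.0291, 0.0295 and 0.0484. Over all probe sets 0.954% were called lower and 1.01% higher in that test, and all 3 calls were lost with population means.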

How the results depend on the processing

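Most member values kept their sign: of 1290 single values under the alternatives, 1207 did, and the 83 that did not came from differences that were not called. No call changed sign. Centring arrays on their medians moved the median log2 fold change of all larval probe sets from -0.11 to 0.07 and that of the stage difference of the S_O2_A effect from 0.16 to -0.10, and the share of higher calls over all probe sets in larvae from 52.8% to 85.9% (65.3% with quantile normalization), in that difference from 51.5% to 12.8% (30.5%) and in adults from 22.4% to 0%.

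In adults 0 member probe sets were called in all alternatives but the fit of all 24 arrays, with 2. In larvae the count of 1 became 2 with no block, with a floor at the 20th percentile, with dim probe sets left out, with the replicate block and with the t-test after Benjamini-Hochberg. It became 0 with population means, with the first or second arrays alone and with the t-test after Bonferroni, and ran from 0 to 1 without 1 population. With arrays centred on their medians and in the fit of all 24 arrays, the 1 call was puc in place of grnd. For the difference between stages the count of 3 became 0 with population means and with the first or second arrays alone, and ran from 0 to 2 without 1 population. Without 1 population, the stage counts of 12 and 11 ran from 10 to 12 and from 8 to 11.

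Nothing in the sources pairs control and S_O2_A populations of 1 number, so the counts under the replicate block are gathered here. It gave 0 calls for adults, 2 for larvae and 3 for the difference between stages. The stages in control and S_O2_A populations had 12 and 11. Larval calls over all probe sets moved from 309 to 1136, and an effect shared by arrays of 1 number was not tested. Without 1 population the calls over all probe sets ran from 61 to 318 in larvae and from 53 to 373 for the difference between stages (369 with all), both lowest without control population 3, so the shares printed beside member counts rest on these populations too. Over all probe sets in adults the calls were 67, but 5 to 33 without 1 population (lowest without control population 3), 126 with no block and 280 in the fit of all 24 arrays. Signal limits bsk 1634580_at and kay 1636185_at, which lay above the 20th percentile on 8 and 14 of 24 arrays. It also limits egr 1629442_at in S_O2_A adults, where signals ran from 55.8 over 132.9 to 384.5, beside a 20th percentile of 90.4.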
